A study of Mus musculus with 11 samples.

Results

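The CD3 complex genes of the mouse are Cd3g, Cd3d, Cd3e and Cd247. They were chosen by name, as 4 of the 21887 protein-coding genes of the RefSeq table, and each was taken with 50 kb on either side of its span (build mm10, RefSeq GRCm38.p6). Cd3g (chr9:44969572-44980431), Cd3d (chr9:44981769-44987052) and Cd3e (chr9:44998735-45009663) lie next to each other and were treated as 1 locus, a window of 140.1 kb called the Cd3 cluster here. Cd247 (chr1:165779952-165871153) lies alone in a window of 191.2 kb. The windows held 34 of the 27054 peaks called in the 5 factor libraries and 77 of the 131715 segments called in the 4 histone libraries.

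The proteins encoded by these genes are the signalling subunits of the T-cell receptor. The receptor chains that bind antigen have almost no cytoplasmic tail, and they reach the cell surface only together with the CD3 subunits. CD3 gamma (Cd3g) and CD3 delta (Cd3d) each pair with CD3 epsilon (Cd3e), and the zeta chain (Cd247) forms a dimer with itself. All of them carry immunoreceptor tyrosine-based activation motifs, which Lck phosphorylates and which recruit Zap70. The genes are switched on early in T-cell development, when Notch1 signalling commits progenitors to the T lineage.

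The series used ChIP-seq (chromatin immunoprecipitation followed by sequencing) on 8946 cells, a cultured T-lymphoblastic leukaemia of the mouse. It asked where Zmiz1, a PIAS-like coactivator, meets Notch1 on chromatin. Cells had been transduced with retroviruses carrying an epitope-tagged Zmiz1 (marked by NGFR) and an activated Notch1 (marked by GFP), and doubly positive cells were sorted. The HA line (HA-Zmiz1/ DEGFDLNRDP) gave HA-Zmiz1, ICN1 (intracellular, activated Notch1) and input libraries, and the Flag line (Flag-Zmiz1/ L1601PDP) gave input, Flag-Zmiz1, Rbpj and ICN1 libraries and 4 histone libraries, labelled H3K4me1, H3K4me3, H3K27me3 and H3K27ac. Factor chromatin was crosslinked with both DSG and formaldehyde, histone chromatin with formaldehyde only. ICN1 has no DNA-binding domain of its own and is held on DNA by Rbpj. Both lines thus carried retroviral Zmiz1 and retroviral activated Notch1, so no library came from cells without them, and the precipitated Zmiz1 was the tagged, introduced protein. The lines differed in the tag, in the Notch1 construct and in the line itself, and these cannot be told apart. Rbpj and the histone marks were profiled in the Flag line, so any overlap with the HA line joins 2 lines. There was 1 library per target and line, so there is no replicate error to judge any difference by, and no p-value is given.

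Depth was similar among the factor libraries, at 13.5 to 19.0 M tags after filtering, against 26.8 M in the input of the HA line and 36.4 M in that of the Flag line. The called lists differed widely in length, with 4984 peaks for HA-Zmiz1, 414 for ICN1 in the HA line, 581 for Flag-Zmiz1, 82 for ICN1 in the Flag line and 20993 for Rbpj. H3K4me3 segments covered an end of 8 of 8 T-lineage genes, of 0 of 6 B-lineage genes and of 1 of 6 myeloid genes, Itgam. The T-lineage list includes the 4 CD3 genes, and without them it was 4 of 4. The 2 H3K27 libraries went against their labels. The library labelled H3K27me3 covered an end of 10 of 10 housekeeping genes and 0 of 10 developmental regulators, whereas the library labelled H3K27ac covered 0 of 10 and 9 of 10. They are therefore called by their labels throughout, and no state of a gene is read from either.

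The 4 promoters are shown because each of them carried an Rbpj peak. Each sequence is the RefSeq promoter (GRCm38.p6), from 250 bases before the start to 50 after it, in the direction of transcription, and capitals mark the bases under a called Rbpj peak.
Cd3g promoter, chr9:44980382-44980681, minus strand: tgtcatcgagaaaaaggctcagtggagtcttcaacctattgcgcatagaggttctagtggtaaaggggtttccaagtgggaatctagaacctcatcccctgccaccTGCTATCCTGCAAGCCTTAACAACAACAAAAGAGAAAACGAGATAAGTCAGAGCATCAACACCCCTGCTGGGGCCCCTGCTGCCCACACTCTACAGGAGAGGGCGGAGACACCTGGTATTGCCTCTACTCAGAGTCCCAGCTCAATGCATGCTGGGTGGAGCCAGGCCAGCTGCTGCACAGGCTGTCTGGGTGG
Cd3d promoter, chr9:44981536-44981835, plus strand: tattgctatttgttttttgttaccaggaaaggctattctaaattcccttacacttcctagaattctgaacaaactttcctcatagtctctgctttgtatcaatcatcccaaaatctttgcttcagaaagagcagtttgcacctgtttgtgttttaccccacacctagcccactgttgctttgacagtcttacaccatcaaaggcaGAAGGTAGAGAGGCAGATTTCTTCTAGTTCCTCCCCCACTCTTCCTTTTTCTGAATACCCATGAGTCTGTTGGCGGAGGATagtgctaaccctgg
Cd3e promoter, chr9:45009562-45009861, minus strand: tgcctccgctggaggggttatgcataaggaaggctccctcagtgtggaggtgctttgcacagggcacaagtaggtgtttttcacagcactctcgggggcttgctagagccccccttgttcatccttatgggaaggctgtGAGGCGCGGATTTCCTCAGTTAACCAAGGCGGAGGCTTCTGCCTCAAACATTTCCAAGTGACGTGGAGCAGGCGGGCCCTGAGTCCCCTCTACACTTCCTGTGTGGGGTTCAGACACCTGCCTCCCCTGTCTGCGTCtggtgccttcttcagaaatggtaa
Cd247 promoter, chr1:165788431-165788730, plus strand: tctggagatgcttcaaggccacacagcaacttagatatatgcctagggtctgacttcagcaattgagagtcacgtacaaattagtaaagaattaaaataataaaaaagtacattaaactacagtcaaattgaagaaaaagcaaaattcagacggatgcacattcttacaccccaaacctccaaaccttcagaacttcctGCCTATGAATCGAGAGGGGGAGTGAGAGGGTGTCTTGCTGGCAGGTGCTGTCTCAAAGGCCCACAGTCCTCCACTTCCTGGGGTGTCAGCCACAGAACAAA

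Rbpj peaks overlapped 4 of these 4 promoters, whereas they overlapped 22.1% of the 32851 promoters of the table. The deposited fold of the peak over local input was 6.91 at Cd3g, 5.25 at Cd3d, 7.10 at Cd3e and 5.50 at Cd247, around the median of 6.47 over the whole Rbpj list. Their summits lay 28 bp upstream of the Cd3g start, 26 bp upstream of the Cd3d start, 57 bp upstream of the Cd3e start and 33 bp downstream of the Cd247 start. HA-Zmiz1 peaks overlapped 2 of the 4 promoters, against 2.15% of all promoters. These were Cd3d, with a fold of 6.69 and a summit 1 bp downstream of the start, and Cd3g, with a fold of 6.11 and a summit 26 bp downstream. Both HA-Zmiz1 peaks lay within the Rbpj peak of the same promoter, a pair found at 2.03% of all promoters. No ICN1 peak of the HA line fell on the 4 promoters, and 0.134% of all promoters held one. All these shares are over promoters with and without H3K4me3, which covered the starts of the 4 genes and of 36.6% of promoters. H3K4me3 segments overlapped 87.3% of the Rbpj list and 93.2% of the HA-Zmiz1 list. The shares among promoters with H3K4me3 were not counted, so a trait particular to the CD3 genes cannot be read from these counts. Widening the promoter to 1 kb on either side of the start, a setting chosen after seeing the data, gave Rbpj at 4 and HA-Zmiz1 at 3 of the 4 genes, with Cd3e added, against 27.3% and 3.47% of all promoters. Limiting peaks to a deposited -log10 p of 10 or more, also chosen after seeing the data, left Rbpj on 3 of the 4 promoters, without Cd247, and HA-Zmiz1 on 1, that of Cd3d, against 15.3% and 0.804% of all promoters.

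**Figure D1:**
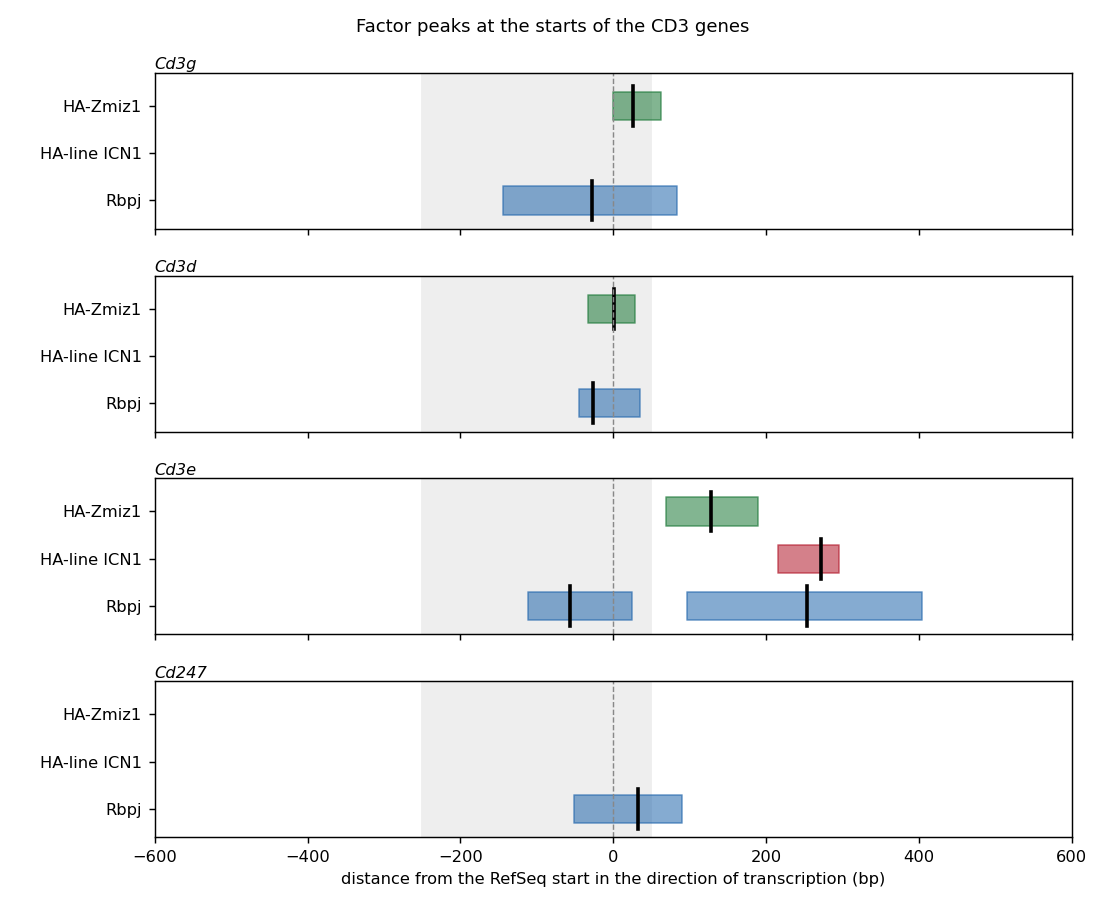
Called peaks around the starts of Cd3g, Cd3d, Cd3e and Cd247, with the distance from the RefSeq start in bp on the x axis (direction of transcription to the right) and a row each for HA-Zmiz1, HA-line ICN1 and Rbpj. Bars are peaks, black ticks their summits and the grey band the promoter. Rbpj lies on all 4 promoters, HA-Zmiz1 on those of Cd3g and Cd3d, and the ICN1 summit lies 272 bp downstream of the Cd3e start.

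The letters TGGGAA, the core of the sequence that Rbpj binds, were sought on both strands of the 4 promoters. They occurred in those of Cd3e and Cd3g and in 25.6% of all promoters, or 22.8% of the promoters under an Rbpj peak. Neither match lay under the called peak. The stronger Rbpj peaks at the ICN1 sites in Cd3e and Cd247 lie outside these promoters. Their sequences were not available and were not searched. The Cd3e match began at position -123 from the start, 6 bp outside the peak and 63 bp from its summit, and the Cd3g match began at position -174, 24 bp outside the peak and 143 bp from its summit. The 30 bases around each match are shown with the matched letters in capitals.
Cd3e, chr9:45009717-45009746, minus strand: tgttcatccttaTGGGAAggctgtgaggcg
Cd3g, chr9:44980588-44980617, minus strand: ggggtttccaagTGGGAAtctagaacctca

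Letters bound by other lymphoid factors were sought in the same way. The E-protein letters CAGNTG occurred in 4 of the 4 promoters and in 51.4% of all promoters (39.7% of those under an Rbpj peak), and at least 1 match lay under the Rbpj peak at Cd3g, Cd3e and Cd247. The Ets letters AGGAAG occurred in 3 of the 4, those of Cd3d, Cd3e and Cd247, against 35.4% of all and 31.8% of those under an Rbpj peak. In each of these 3 promoters 1 AGGAAG match lay under the Rbpj peak, 23 bp from the summit at Cd3d, 43 bp at Cd3e and 9 bp at Cd247. The Tcf and Lef letters CTTTGA occurred at Cd3d and Cd247, against 16.0% of all promoters and 10.7% of those under an Rbpj peak. The Gata letters AGATAA occurred at Cd3g, against 11.2% of all and 4.33% of those under an Rbpj peak. The Runx letters TGTGGT or TGCGGT were in 0 of the 4 windows and in 22.4% of all promoters, or 21.3% of those under an Rbpj peak. No match overlapped a match of another motif. Each match is a description of these letters in this window, and binding by the named factors was not measured except for Rbpj.

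Cd3e encodes CD3 epsilon, the chain shared by both heterodimers, and was the gene of the cluster with an ICN1 peak. The peak (chr9:45009316-45009396) had its summit 272 bp downstream of the start, inside the gene (exons and introns were not told apart here). Its pileup was 9 fragments (exact Poisson 95% interval 4.12 to 17.1, counting error only), its fold 6.50 and its deposited -log10 p 9.47, which ranked it 248 of the 414 ICN1 peaks of the HA line. It was thus an ordinary peak of its list, whose median fold was 6.49.

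At the same place Rbpj had one of its stronger peaks. It spanned chr9:45009207-45009515, with a pileup of 31 fragments (21.1 to 44.0) and a fold of 15.8, rank 489 of 20993 by -log10 p or the top 2.33%. The Rbpj and ICN1 summits were 19 bp apart. The second Rbpj peak of Cd3e, the one on the promoter, was weaker, with a fold of 7.10.

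HA-Zmiz1 also had a peak just inside Cd3e (chr9:45009421-45009542), with the summit 128 bp downstream of the start. It was the weakest HA-Zmiz1 peak of the locus, with a pileup of 8 fragments (3.45 to 15.8), a fold of 4.20 and rank 4824 of 4984. It overlapped the stronger Rbpj peak by 95 bp but did not reach the ICN1 peak. The edges of the HA-Zmiz1 and ICN1 peaks were 24 bp apart and their summits 144 bp. Within a stretch just downstream of its start, Cd3e therefore held peaks of HA-Zmiz1, ICN1 and Rbpj, with Rbpj the strongest.

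Cd3g and Cd3d encode the partners of CD3 epsilon and are transcribed away from each other from starts 1.36 kb apart. HA-Zmiz1 had a pileup of 10 fragments (4.80 to 18.4) at the Cd3g start and of 12 (6.20 to 21.0) at the Cd3d start, so the counting intervals of the 2 peaks overlapped. Rbpj had 24 (15.4 to 35.7) at Cd3g and 18 (10.7 to 28.4) at Cd3d. A further pair of peaks lay near the far end of Cd3d, 4.89 kb downstream of its start for HA-Zmiz1 (fold 5.52) and 4.94 kb for Rbpj (fold 6.35). Neither gene had an ICN1 peak of its own, and the ICN1 peak within 50 kb of both was the one in Cd3e.

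The strongest HA-Zmiz1 peak of the cluster lay between genes, 6.44 kb upstream of Cd3e (chr9:45015952-45016089). Its pileup was 18 fragments (10.7 to 28.4) and its fold 8.86, rank 779 of 4984. An Rbpj peak of fold 8.19 had its summit 10 bp away. No ICN1 peak was called there in either line.

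In all, the cluster window held 9 HA-Zmiz1 peaks (folds 4.20 to 8.86, median 6.39), 1 HA-line ICN1 peak and 15 Rbpj peaks (folds 3.65 to 15.8, median 6.35). Not all of them lay in the CD3 genes. Of the HA-Zmiz1 peaks, 2 had their summits in Ube4a, a ubiquitin ligase gene, one of them 7 bp inside its start (fold 7.00), and 2 lay in Mpzl3 near the opposite edge of the window (folds 7.57 and 5.13). Rbpj also had peaks at the start of Atp5l, a gene for an ATP synthase subunit, with folds of 4.85 and 6.01. The remaining 5 HA-Zmiz1 peaks were those at the starts of Cd3g, Cd3d and Cd3e, at the far end of Cd3d and upstream of Cd3e.

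**Figure D2:**
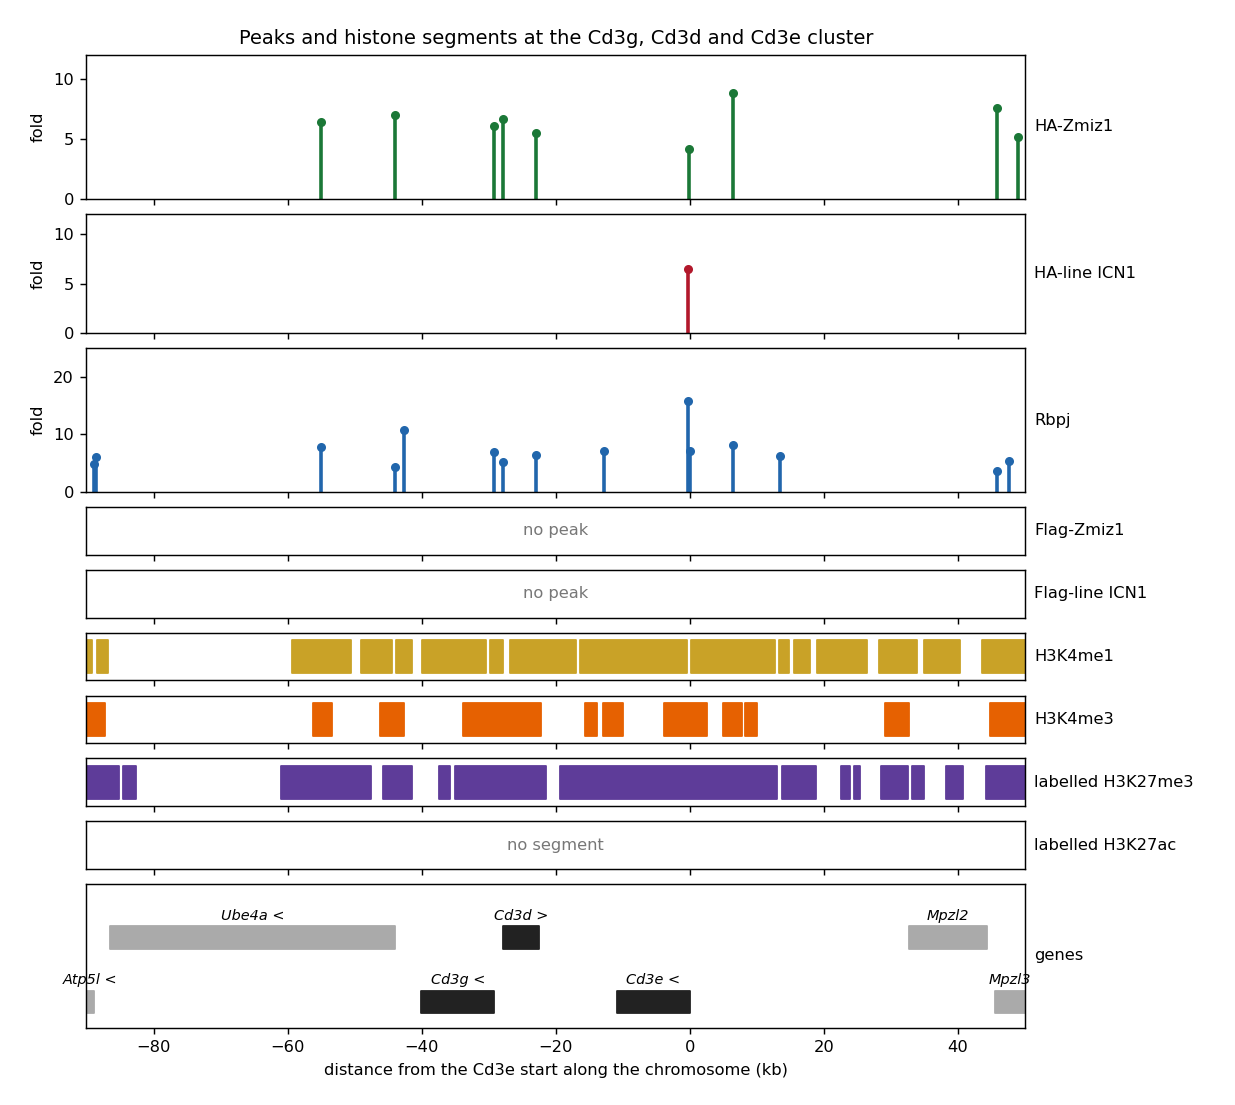
The Cd3 cluster, with the distance from the Cd3e start along the chromosome in kb on the x axis. The upper 3 rows show each peak at its summit with the deposited fold over local input on the y axis. The next 2 rows are Flag-Zmiz1 and Flag-line ICN1, which had no peak. The lower rows show the histone segments as bars and the genes (black for CD3 genes, arrowheads for strand where the promoter table gives it). The tallest HA-Zmiz1 peak (fold 8.86) stands 6.44 kb upstream of Cd3e and the tallest Rbpj peak (fold 15.8) at the ICN1 peak.

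Read by gene, HA-Zmiz1 peaks were dense around the cluster. Cd3e had 9 within 50 kb, and 20 of the 21887 coding genes (0.0914%) had as many, Cd3e included. Cd3g and Cd3d had 7 each, as many as 0.420% of coding genes had. At least 1 HA-Zmiz1 peak lay within 50 kb of 4 of the 4 CD3 genes and of 27.8% of coding genes. For Rbpj the number within 50 kb was 13 at Cd3e, 13 at Cd3g and 11 at Cd3d, reached by 1.47%, 1.47% and 3.13% of coding genes, with 67.2% of coding genes having at least 1. Among coding genes with H3K4me3 over an end, as the CD3 genes had, at least 1 peak lay near 41.8% for HA-Zmiz1 and 95.1% for Rbpj. An ICN1 peak of the HA line lay within 50 kb of 4 of the 4 genes and of 3.42% of coding genes, but the 4 genes share only 2 such peaks. Peaks of HA-Zmiz1, HA-line ICN1 and Rbpj within 50 kb of the same gene occurred at 4 of the 4 and at 2.91% of coding genes. With peaks limited to a deposited -log10 p of 10 or more, a setting chosen after seeing the data, this became 0 of the 4 and 1.40% of coding genes, because the cluster then had no ICN1 peak and Cd247 no HA-Zmiz1 peak.

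Cd247 encodes the zeta chain, which carries more activation motifs than any other CD3 subunit. It had the strongest site of the 2 loci, 27.9 kb downstream of the start inside the gene. There Rbpj (chr1:165816462-165816700) had a pileup of 40 fragments (28.6 to 54.5) and a fold of 23.2, rank 158 of 20993 or the top 0.753%. The ICN1 peak of the HA line (chr1:165816516-165816580) had a pileup of 11 fragments (5.49 to 19.7), a fold of 7.96 and rank 162 of 414. The 2 summits were 22 bp apart. No HA-Zmiz1 peak was called there.

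The single HA-Zmiz1 peak of Cd247 lay 56.5 kb downstream of the start (chr1:165845136-165845217), with a pileup of 11 fragments (5.49 to 19.7) and a fold of 5.60. An Rbpj peak of fold 5.30 had its summit 5 bp away. A single HA-Zmiz1 peak within 50 kb is common, since 27.8% of coding genes had at least 1.

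Rbpj had 7 peaks in the Cd247 window (folds 5.30 to 23.2, median 8.17), a number that 12.4% of coding genes reached. Besides the peak under ICN1, the stronger ones lay in Creg1, the neighbouring gene upstream, with a fold of 15.2, and at the upstream edge of the window with a fold of 13.4, 49.5 kb outside the gene. A peak of fold 8.17 lay 8.23 kb upstream of the start given in the promoter table, at the outer end of the longer RefSeq span of Cd247. The peaks per 100 kb of window came to 0.523 for HA-Zmiz1, 0.523 for HA-line ICN1 and 3.66 for Rbpj at Cd247, and to 6.42, 0.714 and 10.7 at the Cd3 cluster. Pou2f1, a transcription factor gene at the downstream edge, had no factor peak in its part of the window.

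**Figure D3:**
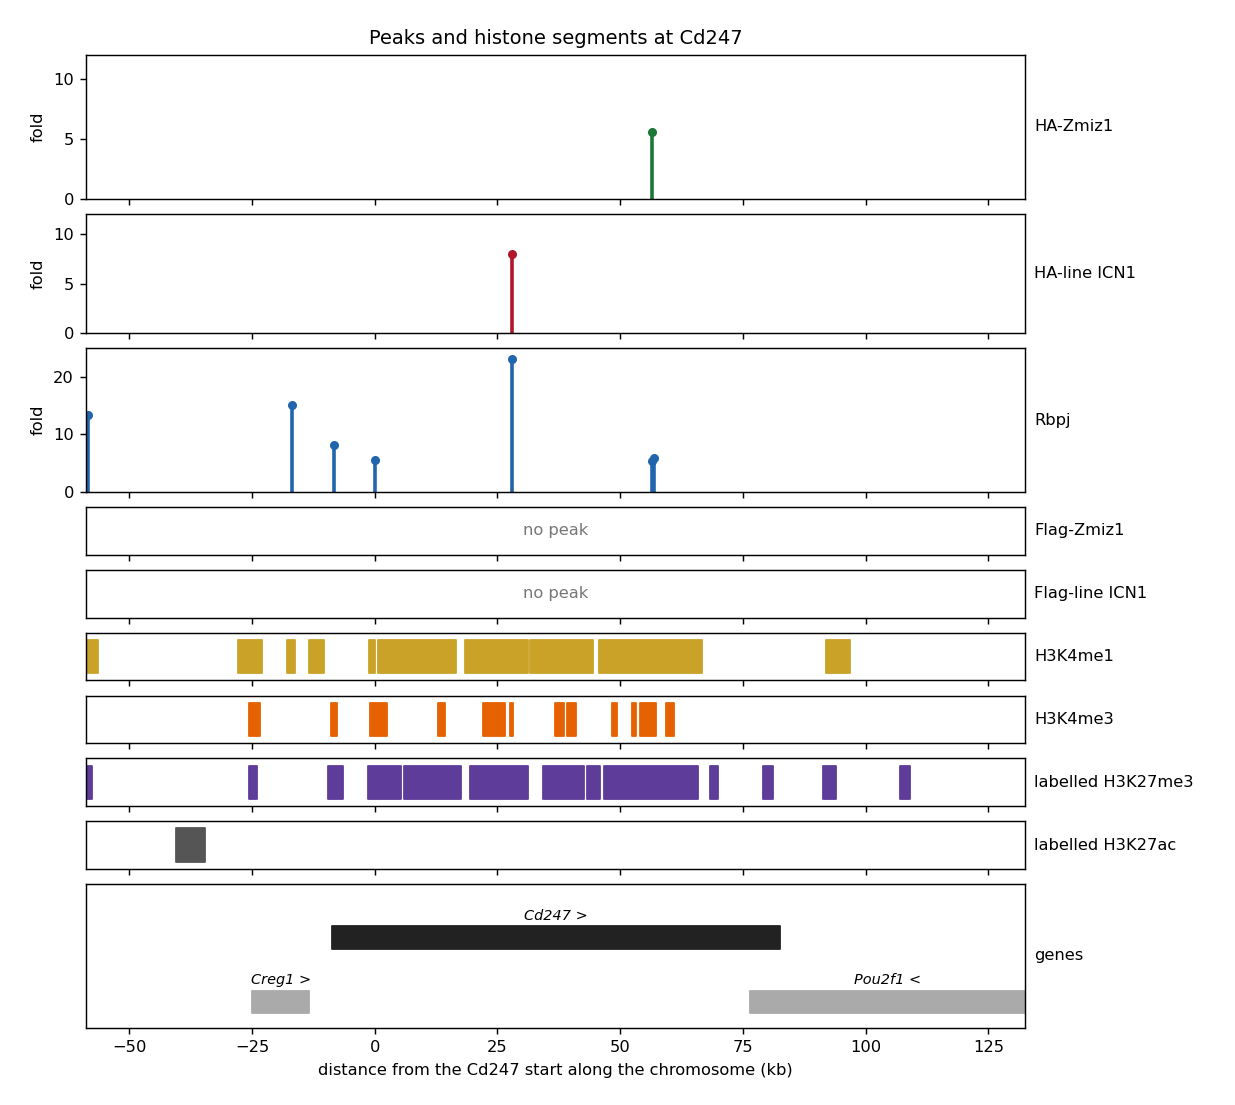
The Cd247 window, with the distance from the Cd247 start along the chromosome in kb on the x axis. Rows are as for the Cd3 cluster (fold over local input for HA-Zmiz1, HA-line ICN1 and Rbpj, then the empty rows of Flag-Zmiz1 and Flag-line ICN1, histone segments and genes). The tallest Rbpj peak (fold 23.2) coincides with the ICN1 peak 27.9 kb downstream of the start, and the HA-Zmiz1 peak stands 56.5 kb downstream.

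Overlaps were counted where peaks shared at least 1 bp. Of the HA-Zmiz1 peaks of the 2 windows, 9 of 10 overlapped an Rbpj peak, against 71.3% of the whole HA-Zmiz1 list, and the exception was the outermost peak in Mpzl3. In the other direction, 8 of the 15 Rbpj peaks of the cluster and 1 of the 7 of Cd247 overlapped HA-Zmiz1, against 16.9% of the whole Rbpj list. Both ICN1 peaks overlapped Rbpj, as did 96.6% of the ICN1 list. Neither overlapped HA-Zmiz1, whereas 72.9% of the ICN1 list did. With only 2 ICN1 peaks, and the one in Cd3e 24 bp short of an overlap, the counts behind this comparison are small.

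The Rbpj peaks under ICN1 had the highest folds of the windows, 15.8 and 23.2, and the other 20 had folds of 3.65 to 15.2 with a median of 6.29. The gap below the Cd3e peak was small, since the Rbpj peak in Creg1, with no ICN1 peak, had a fold of 15.2 and a higher pileup (38 fragments, against 31 at Cd3e) and -log10 p (39.3, against 35.4). Over the whole list the median was 12.5 for the 387 Rbpj peaks with ICN1 and 6.44 for the 20606 without. HA-Zmiz1 folds near the CD3 genes lay around the median of their list, 6.53, and none of those peaks overlapped ICN1. Local input at the 34 peaks was 1.20 to 8.15 times the mean of the library, below the 10 times used here to call an input high. The highest of these values was at the Rbpj peak of the Ube4a start.

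**Figure D4:**
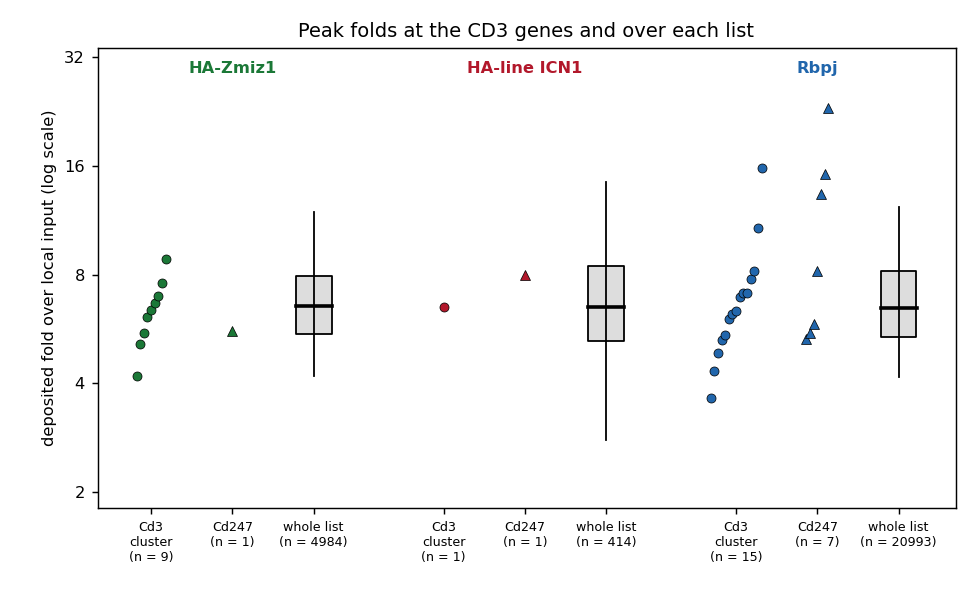
Deposited folds over local input (y axis, log scale) of the peaks at the Cd3 cluster (circles) and Cd247 (triangles), beside the whole list of the same library (box for the middle 50% with its median, line from the 5th to the 95th percentile). HA-Zmiz1 and ICN1 peaks near the CD3 genes lie around the medians of their lists (6.53 and 6.49), and 4 Rbpj peaks rise above 12: 1 in Cd3e and 3 in the Cd247 window.

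In the Flag line, neither Flag-Zmiz1 nor ICN1 had a peak in either window. The share of coding genes with a peak within 50 kb was 4.06% for Flag-Zmiz1 and 0.215% for ICN1, so a count of 0 of 4 is what most genes showed. The nearest Flag-Zmiz1 peak lay 340.7 kb from the cluster and 913.1 kb from Cd247, and the nearest Flag-line ICN1 peaks lay 9664 kb and 10254 kb away. The ICN1 peak at 9664 kb had a fold of 2.75 and a local input 86.9 times the library mean. That is above the 10 times used here to call an input high. The 2 lines had similar numbers of tags, but target by target the Flag-line lists were shorter. They held 581 against 4984 peaks for Zmiz1 and 82 against 414 for ICN1. The absence of a called peak is therefore no measure of binding there. At the edge of the 50 kb window, the outermost peaks inside were HA-Zmiz1 at 48.9 kb (fold 5.13) and Rbpj at 48.8 kb (fold 4.85) from the cluster and Rbpj at 49.5 kb (fold 13.4) from Cd247. The nearest outside were HA-Zmiz1 at 111.5 kb (fold 9.64) and Rbpj at 86.7 kb (fold 7.91) from the cluster, and HA-Zmiz1 at 70.1 kb (fold 8.40) and Rbpj at 61.9 kb (fold 3.62) from Cd247.

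H3K4me3, a mark of active starts, covered the starts of 4 of the 4 genes, against 36.6% of the promoters of the table. One segment of 11.6 kb spanned the starts of both Cd3g and Cd3d and the whole of Cd3d. It held 3583 reads in the H3K4me3 library against 379 in the control, a deposited fold of 14.5 (exact 95% interval 13.0 to 16.2, counting error only). Segments as wide made up 142 of the 26767 H3K4me3 segments, or 0.531%. The segment over the Cd3e start was 6.4 kb wide with a fold of 12.9 (11.0 to 15.2), and the one over the Cd247 start was 3.4 kb wide with a fold of 15.5 (12.6 to 19.3). The intervals of the 3 folds overlapped, whereas the widths ranged over 3.4 to 11.6 kb. A further segment of fold 10.4 (7.71 to 14.4) lay at the outer end of the Cd247 span, at the Rbpj peak of fold 8.17.

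The library labelled H3K27me3 covered the same 4 starts, against 34.6% of promoters. Its segment over Cd3g and Cd3d was 13.6 kb wide with a fold of 6.96 (6.26 to 7.74), the top 3.26% of its list. The segment over Cd3e was 32.4 kb wide with a fold of 5.52 (5.10 to 5.97), took in the whole gene, and 0.348% of segments were as wide. The segment at the Cd247 start was 6.6 kb wide with a fold of 4.59 (3.84 to 5.51). The library labelled H3K27ac covered none of the 4 starts, against 15.1% of promoters. It had no segment in the cluster window and 1 in the Cd247 window, between genes, with a fold of 2.00 (1.53 to 2.60).

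H3K4me1, a mark of enhancers and of the flanks of active starts, covered 3 of the 4 starts, against 15.4% of promoters. The exception was Cd3e, whose start fell in the gap between a 16.0 kb segment over the gene (fold 3.77) and a 12.6 kb segment upstream of it (fold 3.54). This gap was short, since the first segment ended at chr9 position 45009200 and the second began at 45009801. The folds at the other starts were 2.59 over Cd3g and Cd3d and 4.49 over Cd247. The ICN1 site in Cd3e lay in the same gap and inside the H3K4me3 segment. The ICN1 site in Cd247 lay inside a 12.8 kb H3K4me1 segment (fold 4.03) and a 0.6 kb H3K4me3 segment with 27 reads against 14 in the control (fold 2.96, 1.50 to 6.10). The 2 ICN1 sites therefore differed in H3K4me3, with a start rich in it at Cd3e and little of it at Cd247. H3K4me1 segments lay over the Cd247 site and close by on either side of the Cd3e site.

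Segments of H3K4me1, H3K4me3 and the library labelled H3K27me3 lay within 50 kb of 4 of the 4 genes, against 74.1%, 73.8% and 72.0% of coding genes. The library labelled H3K27ac had one near 1 of the 4, Cd247, against 58.0%. Across the windows, segments covered 69.3% of the cluster and 42.2% of Cd247 for H3K4me1, 32.4% and 12.3% for H3K4me3, and 66.9% and 38.8% for the library labelled H3K27me3. The shares around the cluster genes were high among coding genes. For the library labelled H3K27me3, segments covered 78.2% of the Cd3e span with its flanks, 69.7% for Cd3g and 69.0% for Cd3d, reached by 0.110%, 0.256% and 0.297% of coding genes, whose median was 5.08%. For H3K4me1 the shares were 85.3%, 66.6% and 73.1%, reached by 0.0822%, 0.667% and 0.302%. For H3K4me3 they were 38.4%, 33.0% and 32.1%, reached by 0.256%, 0.525% and 0.617%. Cd247 stood lower, at 38.8% for the library labelled H3K27me3 (reached by 3.10%), 42.2% for H3K4me1 (reached by 5.10%) and 12.3% for H3K4me3 (reached by 16.3%). These shares were still above the medians of coding genes, which were 8.64% for H3K4me1 and 4.22% for H3K4me3. The 3 cluster genes share most of their flanks and are not independent of each other.

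**Figure D5:**
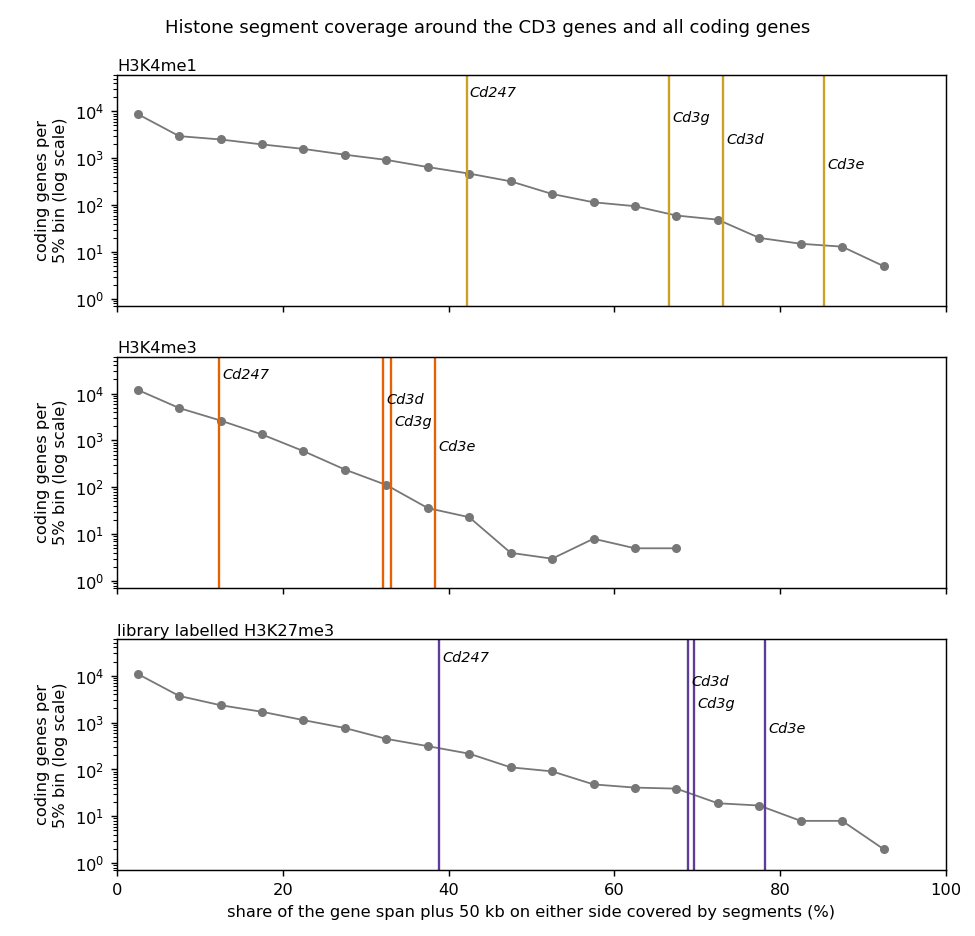
Share of each gene span with 50 kb on either side covered by segments (x axis, %) and the number of coding genes per bin of 5 percentage points (y axis, log scale, grey points) for H3K4me1, H3K4me3 and the library labelled H3K27me3. Vertical lines mark the CD3 genes. Cd3e stands far to the right in each panel (85.3%, 38.4% and 78.2%), with Cd3g and Cd3d near it and Cd247 lower.

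All 10 HA-Zmiz1 peaks and both ICN1 peaks of the windows lay in segments of H3K4me3 and of the library labelled H3K27me3, as did 93.2% and 93.6% of the HA-Zmiz1 list and 89.1% and 89.4% of the ICN1 list. Of the 22 Rbpj peaks, 19 lay in H3K4me3 segments and 20 in those of the library labelled H3K27me3, against 87.3% and 86.2% of the list. The exceptions included the Rbpj peak in Creg1, which overlapped H3K4me1 alone, as did the one 13.4 kb upstream of Cd3e. None of the 34 peaks lay in a segment of the library labelled H3K27ac, where 1.93% of the HA-Zmiz1 list, 8.70% of the ICN1 list and 5.31% of the Rbpj list lay, so a count of 0 is near the background.

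Other genes of T-cell receptor signalling were counted with the same 50 kb rule, from a list of 32 that included the kinases, adaptors, phosphatases and coreceptors of the pathway. HA-Zmiz1 had a peak near 28 of the 32, against 27.8% of coding genes, and Rbpj near 32 of the 32, against 67.2%. All 32 had an H3K4me3 segment within 50 kb. Among coding genes with H3K4me3 over an end the shares were 41.8% for HA-Zmiz1 and 95.1% for Rbpj. The Rbpj count was thus near the share of such genes. On the promoter itself there were 5 genes with HA-Zmiz1, 15 with Rbpj and 0 with ICN1, against 2.15%, 22.1% and 0.134% of all promoters. The shares among promoters with H3K4me3 were not counted. HA-line ICN1 had a peak near 6 of the 32, against 3.42% of coding genes and 5.30% of those with H3K4me3 over an end. These were Lat, the membrane adaptor phosphorylated by Zap70, with an ICN1 fold of 8.15, Ptprc (CD45, the phosphatase that activates Lck) with 5.38, Pag1 (an adaptor for the inhibitory kinase Csk) with 6.50, Cd4 with 4.79, and Cd8a and Cd8b1, which share a peak of fold 7.19. The ICN1 folds of 6.50 at Cd3e and 7.96 at Cd247 fell within this range. Flag-Zmiz1 had a peak near 4 of the 32, against 4.06% of coding genes and 4.43% of those with H3K4me3 over an end. These were Grap2, Ptprc, and Cd5 and Cd6, which share 1 peak.

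HA-Zmiz1 counts within 50 kb put the cluster beside the coreceptors, with 9 at Cd3e, 9 at Cd8a, 11 at Cd8b1 and 5 at Cd4. The best HA-Zmiz1 folds were 8.86 for the cluster, 14.3 for Cd8a and Cd8b1 and 15.5 for Cd4. For Rbpj the best folds were 23.2 at Cd247 and 15.8 at the cluster, against 13.8 at Cd4 and 11.0 at Cd8a and Cd8b1. Other genes of the list were as high as the cluster, with best Rbpj folds of 16.1 at Sh2d2a, 15.9 at Themis and 15.4 at Lck. Cd247 and the related gene Fcer1g, which encodes the Fc receptor gamma chain, each had 1 HA-Zmiz1 peak within 50 kb, with the same fold of 5.60.

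The coding genes with the most similar pattern were found from the best fold of each of the 9 libraries within 50 kb, as the summed absolute difference of log2(1 + fold). A library with no peak or segment there entered with a fold of 0, which widens the difference for many genes. For the Cd3 cluster these were Drg1 (0.37), Smarcc2 (0.49) and Nap1l1 (0.57), where the median coding gene stood at 10.202. Drg1 had best folds of 8.89 for HA-Zmiz1, 5.49 for ICN1 and 15.9 for Rbpj, beside the 8.86, 6.50 and 15.8 of the cluster. These genes were picked by these same folds, so their closeness follows from the choice. For Cd247 they were Sec14l1 (1.23), Bmp2k (1.28) and Vwa1 (1.28), where the median stood at 9.42. A best fold could lie at a neighbouring gene. In the cluster window the best H3K4me3 fold (17.7) was at Atp5l and the best H3K4me1 fold (4.15) at Mpzl2 and Mpzl3, so the pattern is not that of the CD3 genes alone.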

How the data were processed

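The authors aligned reads with Bowtie 0.12.7 to mm10 and used FastQC 0.10.0, MACS2 2.0.10, SICER 1.1 and HOMER 4.2, per the submitters' processing notes. Factor peaks were called with MACS 2.0.10.20120913, per the file headers, using each line's own input as control. The headers give a p limit of 1e-05, local windows of 1000 and 10000 bp and at most 1 tag per position, and name pooled read files for the HA line. The deposited peak tables give the pileup signal at the summit, the fold over local input and the -log10 p. The deposited histone segments give read counts in the precipitation and in the control, a fold (ratio) and a p-value.

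Peaks and segments overlapping the windows by at least 1 bp were taken with Python 3.11.15, numpy 2.4.6 and scipy 1.17.1, and drawn with matplotlib 3.10.9. The local input was recovered from pileup and fold. Poisson and binomial intervals (95%) cover counting error only. Overlap and coverage code was tested on simulated data. Names and promoter sequences came from RefSeq (GRCm38.p6), and 4 of 4 genes matched. Positions are 1-based. No statistical test was run, since there was 1 library per target and line. Genes named are the members, coding genes overlapping the windows, the 3 genes of most similar pattern per locus, and the signalling genes with an HA-line ICN1 peak. Cd5, Cd6, Grap2, Fcer1g, Sh2d2a, Themis and Lck, and the non-ICN1 values of signalling genes, were added after their values were seen. The members and all lists were chosen with earlier results of these data known. Alternatives were other windows, a stricter threshold, other overlap rules and another gene pool.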

Additional observations from a re-analysis of the deposited data

How the results depend on the processing

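No paired analysis was possible because each target had 1 library per line and the numbers in the titles mark the lines. Leaving out replicates was not possible for the same reason. The 34 factor peaks became 21 with 5 kb windows, 63 with 200 kb windows and 20 with a deposited -log10 p of 10 or more, and stayed 34 with peaks over high local input left out. Under that stricter p limit, the Cd3 cluster kept 5 HA-Zmiz1, 0 ICN1 and 10 Rbpj peaks and Cd247 kept 0, 1 and 4. The CD3 genes with all 3 factors within 50 kb then fell to 0 of 4, and HA-Zmiz1 stayed on 1 promoter, settings chosen after seeing the data. The 77 histone segments became 43 with 5 kb windows, 185 with 200 kb windows and 37 with the upper part of each list by fold (above its median). ICN1 peaks overlapping Rbpj were 2 with summits within 100 bp and 1 with the stricter p limit. ICN1 peaks overlapping HA-Zmiz1 stayed 0 with summits within 100 bp and with the stricter p limit, and became 1, the one in Cd3e, when a gap of up to 100 bp counted, a setting chosen after seeing the data. The share of coding genes with a peak became 41.8% for HA-Zmiz1, 5.30% for HA-line ICN1 and 95.1% for Rbpj among genes with H3K4me3 over an end. It became 12.1%, 1.21% and 48.7% with 5 kb windows, and 52.6%, 9.84% and 80.9% with 200 kb windows. Of 74 further values, 38 moved little and 36 moved more (by over 1.5 times for counts, beyond the binomial interval for shares). Other causes of these shifts were not tested. The values that moved little include the Flag-Zmiz1 and Flag-line ICN1 counts, which were 0 at every setting. They also include the counts without high-input peaks, where none of the 34 peaks was left out. The number that moved little is thus no measure of how stable the other counts are. Pileups of 8 to 20 fragments at HA-Zmiz1 and ICN1 peaks limit how finely their heights can be compared.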
